A study of Mus musculus with 10 samples.

Results

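The genes of the cytosolic ribosomal proteins were followed in hearts of 1-week-old male mice from 3 WT, 3 Ft1ko and 4 Ft1sm22ko animals. They were taken by name, as every gene called Rpl or Rps with the usual number or letter ending, with the muscle form Rpl3l and the pseudogenes left out. This gave 81 genes among the 17575 genes of the 3 deposited tables, 48 of the large and 33 of the small subunit. The Ft1ko against WT table held 80 of them, since Rpl30 has no row there, and the other tables held 81. Of the 83 protein coding mouse genes in RefSeq that match the name rule, Rpl10l, Rpl26 and Rpl32l have no row in these tables and were not analysed here. The tables have no value for each heart, so the values below are group means with the fold changes and standard errors of the authors' model.

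In Ft1ko mice the floxed Ft1 gene (Aktip in the mouse annotation) was removed in the whole body with a CMV-cre transgene, and in Ft1sm22ko mice with a cre driven by the sm22 promoter of smooth muscle, which is known to be active in early heart muscle as well. The study genotyped both lines before and after Cre was bred out, and the labels do not say whether these hearts carried it. The floxed allele came from a ko-first allele crossed with flippase mice. The RNA came from heart tissue in bulk, so that fewer cells of a type and less RNA per cell cannot be told apart. Aktip was lower in Ft1ko than in WT hearts (664 against 175 normalized counts, log2 fold change -1.93 ± 0.27 SE, Benjamini-Hochberg adjusted p 5.08e-11) and lower in Ft1sm22ko than in WT hearts (894 against 387, -1.21 ± 0.27, adjusted p 1.07e-04). These counts cover the whole gene, whereas over the deleted region the study found no transcripts in Ft1ko and fewer in Ft1sm22ko mice. By Q-PCR it found Ft1 fully depleted in Ft1ko and partly reduced in Ft1sm22ko hearts. Nothing in the labels says which hearts shared a litter or a day.

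Each cytosolic ribosome holds a small subunit, which reads the mRNA, and a large subunit, which joins amino acids and lets the new protein out through its exit tunnel. Nearly every ribosomal protein is present as a single copy per ribosome, and its mRNA is among the most abundant of a cell. Many of these mRNAs start with a C followed by a run of pyrimidines, the terminal oligopyrimidine (TOP) start, through which growth signals from mTOR set their translation. A few members have paralogues that differ between tissues, of which Rpl3l, found in heart and skeletal muscle in place of Rpl3, is the best known.

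The start regions of the 6 members with the largest falls in Ft1ko hearts are shown first, followed by those of Rpl35a, picked because it carries both a TOP start and a YY1 motif, and Rpl39, which was higher in Ft1sm22ko hearts. Promoter sequences from RefSeq (build GRCm38.p6) were found for 60 of the 81 members. Each line below covers 40 bases before and 20 bases from an annotated start. Capitals mark a C with at least 4 pyrimidines after it at that start, CCGGAAG (an ETS factor motif) or AAGATGG (a YY1 motif), either strand.
Rpl38 at chr11:114668540-114668599, plus strand: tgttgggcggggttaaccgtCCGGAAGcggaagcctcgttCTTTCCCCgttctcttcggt
Rps2 at chr17:24720023-24720082, plus strand: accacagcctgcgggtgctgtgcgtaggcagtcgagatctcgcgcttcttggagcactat
Rps21 at chr2:180257339-180257398, plus strand: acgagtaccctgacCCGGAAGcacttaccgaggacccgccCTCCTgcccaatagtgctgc
Rps27l at chr9:66946046-66946105, plus strand: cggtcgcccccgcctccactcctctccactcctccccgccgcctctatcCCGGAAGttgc
Rps15 at chr10:80292391-80292450, plus strand: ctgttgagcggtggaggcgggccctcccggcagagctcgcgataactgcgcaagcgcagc
Rpl13a at chr7:45128726-45128785, minus strand: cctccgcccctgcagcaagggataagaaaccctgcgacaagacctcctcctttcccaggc
Rpl35a at chr16:33056442-33056501, plus strand: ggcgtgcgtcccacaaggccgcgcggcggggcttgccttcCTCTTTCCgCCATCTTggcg
Rpl39 at chrX:37085203-37085262, minus strand: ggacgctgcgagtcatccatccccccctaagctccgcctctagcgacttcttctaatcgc
Of the 6 largest falls, Rpl38 and Rps21 carry the pyrimidine run at the annotated start, while Rps2, Rps27l, Rps15 and Rpl13a do not at the starts shown.

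Over all listed starts of a gene, the run was found exactly at a start in 13 of the 60 members (21.7%), against 3.01% of the 27025 genes with a promoter sequence. Within 10 bases of a start it was found in 61.7% of members and 34.4% of all genes. CCGGAAG lay between 250 bases before and 50 bases after a start in 41.7% of members and 9.93% of all genes, and AAGATGG in 16.7% and 7.28%. Among the 13024 genes of the deposited tables with a promoter sequence, the shares were 2.97% for the run at a start, 36.8% for the run within 10 bases, 16.2% for CCGGAAG and 7.49% for AAGATGG. The mitochondrial ribosomal protein genes, of which 69 have a promoter sequence, held CCGGAAG in 37.7% and the run at a start in 0. Of the 11 members lower in Ft1ko that have a promoter sequence, 3 had the run at a start, and of the 49 other members 10, a difference that was not tested. A match describes letters only, and the annotated start may not be the one used in the heart.

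The members are abundant mRNAs. Their median mean signal in the Ft1ko against WT table was 3737 normalized counts, from 1.48 for Rpl39l to 12866 for Rpsa. In WT hearts they made up 3.19% of the summed group means, leaving out a list of 7 genes, noncoding RNAs and Lars2, 3.73% in Ft1ko and 3.50% in Ft1sm22ko hearts. The summed share was thus larger in both mutants than in WT, although most single members had a negative fold change. The signs differ with the scale. The summed group means, with those RNAs left out, were 11508700 normalized counts in WT and 7905860 in Ft1ko hearts, while the fold changes of the authors' model are scaled on the typical gene. The noncoding RNAs and Lars2 took 34.4% of the summed signal of WT and 3.05% of that of Ft1ko hearts. Directions below are those on the authors' scale, and each comparison gives how they change when both groups are scaled to the same summed signal. The differences among members do not depend on this choice.

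In Ft1ko against WT hearts, 16 of 80 members were lower and 0 were higher at an adjusted p under 0.05, and 64 did not pass. Among all 16748 genes tested, 16.1% were lower and 19.7% were higher so the share of members that were lower was near the background, while that of members that were higher was under it. Among genes whose mean reached 100 normalized counts, 22.4% were lower and 17.2% higher. At an unadjusted p under 0.05 in the authors' DESeq2 model, 1 member, Rpl3, was higher and 22 were lower. The members' median log2 fold change was -0.30, with an interquartile range from -0.54 to -0.04, and 62 of 80 values were negative. The median of all genes was 0.13, and that of the genes whose mean reached 100 normalized counts, as 77 members have, was -0.11. Of the large subunit 9 of 47 members were lower (median -0.37), and of the small subunit 7 of 33 (median -0.25). The precision was limited, as the median standard error was 0.32 and the 95% interval lay within a 2-fold change in either direction for 39 of 80 members.

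The largest fall was that of Rpl38, a large subunit protein known for its part in the translation of Hox mRNAs. Its mean was 2504 normalized counts in WT and 907 in Ft1ko hearts, a log2 fold change of -1.46 ± 0.32 (adjusted p 5.36e-05). Rps2, which lines the mRNA entry side of the small subunit, fell from 16840 to 7181 (-1.23 ± 0.46, adjusted p 0.0256). Rps21, a small protein of the same subunit, fell from 2786 to 1206 (-1.21 ± 0.33, adjusted p 0.00128). These genes were at 36.2%, 42.6% and 43.3% of their WT means.
Rps27l, a paralogue of Rps27 that p53 is known to induce, fell from 733 to 324 (-1.18 ± 0.40, adjusted p 0.0122). Rps15, which helps export the small subunit from the nucleus, had the smallest adjusted p of the family, with 8935 normalized counts in WT and 4171 in Ft1ko hearts (-1.10 ± 0.19, adjusted p 3.82e-07). Rpl13a, known outside the ribosome for silencing inflammatory mRNAs, fell from 7979 to 3964 (-1.01 ± 0.33, adjusted p 0.00902). The other members that were lower, among them Rpl35a, Rps14, Rpl36, Rpl17, Rpl27, Rps4l, Rps24, Rpl36a and Rpl37a, had log2 fold changes from -0.99 to -0.60.

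Scaled to the same summed signal without the noncoding RNAs and Lars2, only Rpl38 (-0.92) and Rps15 (-0.56) were still lower in Ft1ko hearts, while 7 members, Rpl3, Rps4x, Rps13, Rps16, Rpl5, Rpl10a and Rpl4, were higher, and the members' median became 0.24. On that scale 35.4% of all genes were higher and 7.37% lower. With the noncoding RNAs and Lars2 kept in the sum, 49 members were higher and 0 lower, beside 56.8% of all genes higher and 3.28% lower.

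**Figure D1:**
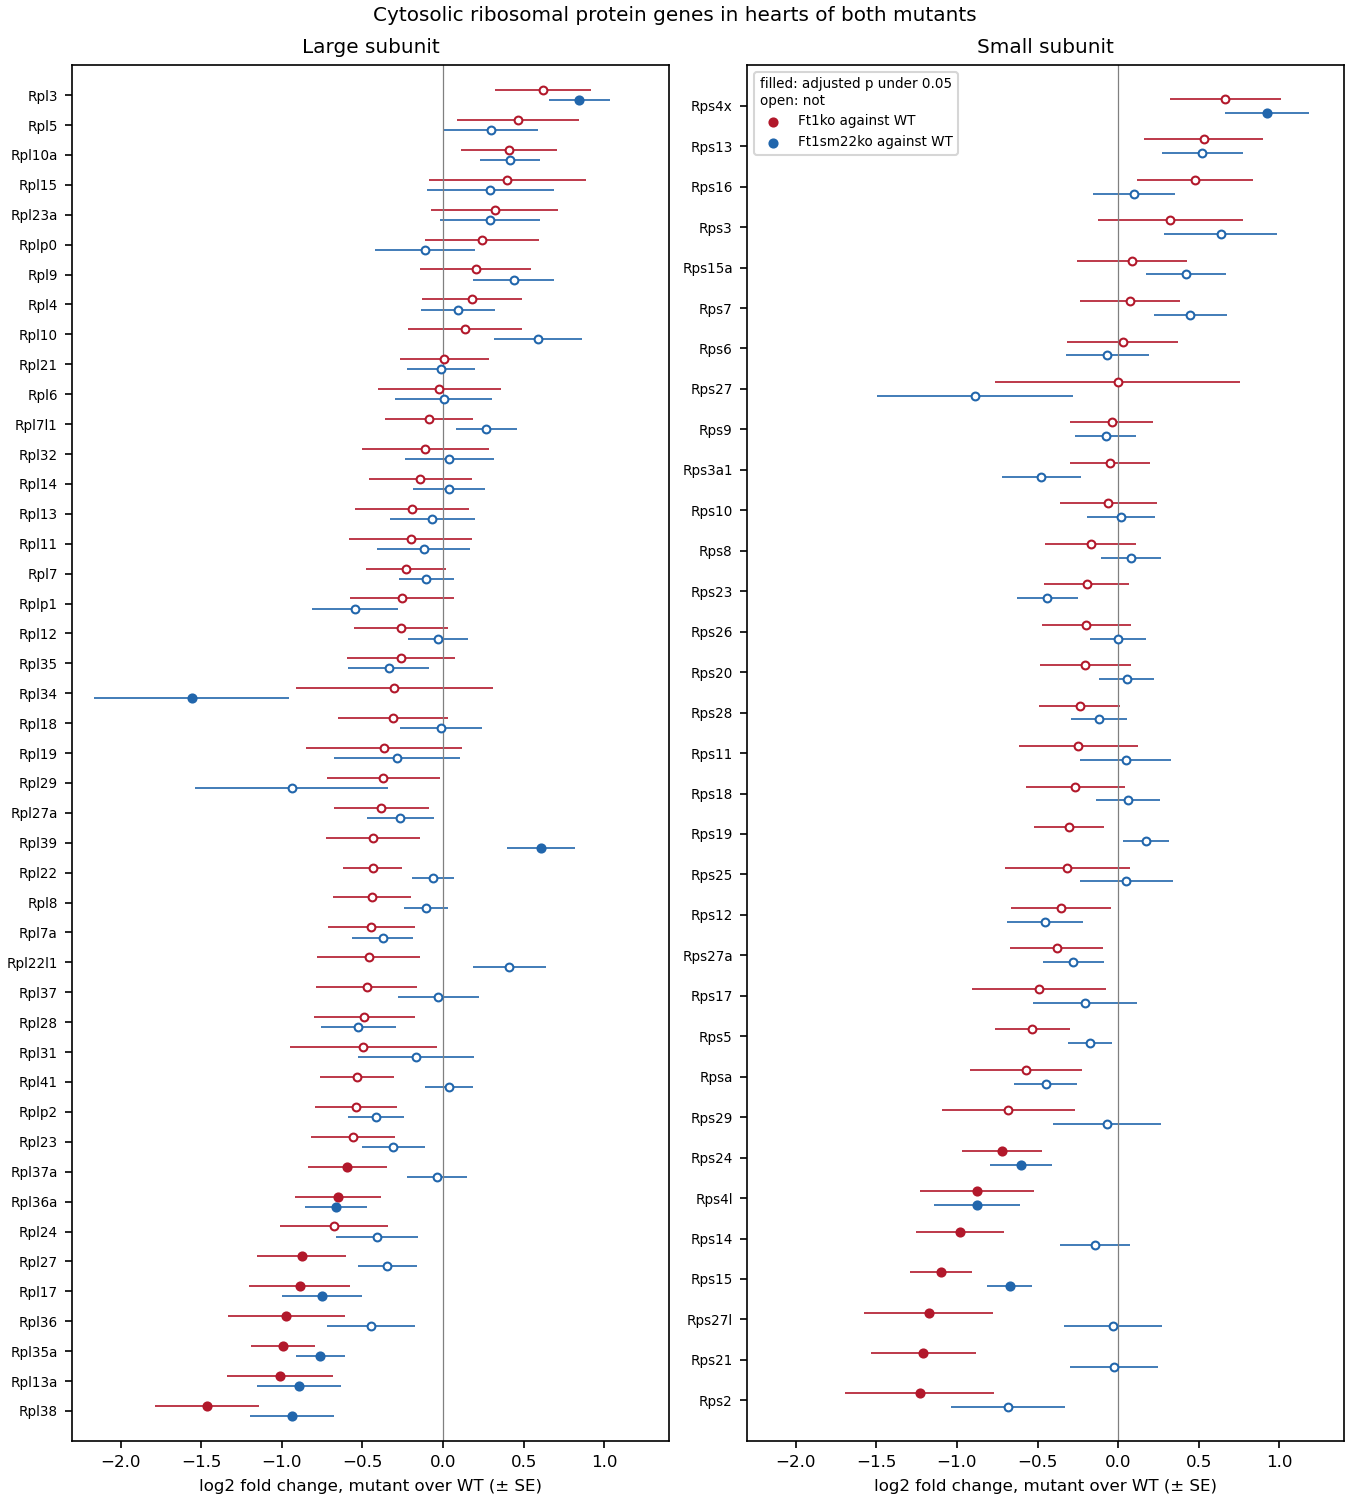
Log2 fold change of mutant over WT hearts on the authors' scale, with its standard error, for the members of the large (left) and small subunit (right), ordered by the value in Ft1ko; Rpl30 and Rpl39l, both under 10 normalized counts, and 1 member not reported singly are not drawn. Red marks Ft1ko and blue Ft1sm22ko, filled points have an adjusted p under 0.05, and the filled points lie below 0 except Rpl3, Rpl39 and Rps4x in Ft1sm22ko; with both groups scaled to the same summed signal, the medians of both mutants move above 0.

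In Ft1sm22ko against WT hearts, 10 of 81 members were lower, 3 were higher and 68 did not pass, against 16.0% lower and 16.2% higher among all 16661 genes tested. Among genes whose mean reached 100 normalized counts, 21.2% were lower and 18.6% higher. The members' own shares were 12.3% and 3.70%. The median log2 fold change was -0.07, with an interquartile range from -0.42 to 0.08, and that of all genes was 0.06. The 95% interval lay within a 2-fold change for 59 of 81 members.

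Both mutants were set against the same 3 WT hearts, so a value seen in both is not independent. Rpl38 fell from 3389 normalized counts in WT to 1770 in Ft1sm22ko (-0.94 ± 0.26, adjusted p 0.00208). Rpl13a fell from 10796 to 5803 (-0.90 ± 0.26, adjusted p 0.00334). Rpl35a, which lies close to the tRNA sites of the large subunit, fell from 4982 to 2938 (-0.76 ± 0.15, adjusted p 7.64e-06).
Rpl17, a protein at the mouth of the exit tunnel, fell from 8654 to 5141 (-0.75 ± 0.25, adjusted p 0.0119). Rps4l is described with its partner below, and the falls of Rps15, Rpl36a and Rps24 were between -0.67 and -0.60. Rpl34 had the largest value (-1.56 ± 0.61, adjusted p 0.0347), but at 30.1 normalized counts in WT and 10.2 in Ft1sm22ko hearts. Most other members stood above 1000 normalized counts. Reads of Rpl34 could be lost or misassigned where near-identical copies exist, which was not tested, so its value is uncertain.

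The members that were higher in Ft1sm22ko hearts were Rps4x, Rpl3 and Rpl39. Rps4x, the X-linked gene of a small subunit protein, rose from 4120 to 7826 normalized counts (0.93 ± 0.26, adjusted p 0.00236). Rpl3, which reaches the site where peptide bonds form, rose from 4198 to 7536 (0.84 ± 0.19, adjusted p 9.55e-05). Rpl39, one of the proteins that line the exit tunnel, rose from 1320 to 2013 (0.61 ± 0.21, adjusted p 0.0160). In Ft1ko hearts the same genes had values of 0.66 ± 0.34, 0.62 ± 0.30 and -0.43 ± 0.29, none of which passed the test (adjusted p 0.120, 0.0894 and 0.252). Scaled to the summed signal without the noncoding RNAs and Lars2, 14 members were higher in Ft1sm22ko and 3, Rpl38, Rpl35a and Rps15, were lower, with a median of 0.25 and with 27.4% of all genes higher and 8.60% lower.

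The mutants were set against each other directly in the third table. In Ft1sm22ko against Ft1ko hearts, 16 of 81 members were higher and 1, Rpl34, was lower, against 10.8% higher and 9.0% lower among all 17169 genes tested. The members' own shares were 19.8% and 1.23%. Among genes whose mean reached 100 normalized counts, 14.8% were higher and 9.54% lower. The median log2 fold change of the members was 0.20 and that of all genes -0.05, and 61 of 81 values were positive. This table shares its Ft1ko hearts with the Ft1ko against WT table.

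Rps21 had the largest rise, from 2600 normalized counts in Ft1ko to 5967 in Ft1sm22ko hearts (1.20 ± 0.19, adjusted p 1.05e-07). Rps27l rose from 700 to 1549 (1.15 ± 0.16, adjusted p 1.14e-09) and Rpl39 from 1567 to 3242 (1.05 ± 0.18, adjusted p 9.36e-07). Against WT, Rps21 and Rps27l were lower in Ft1ko and had values near 0 in Ft1sm22ko hearts, as the plot of all members by mutant shows.
Rpl22l1, the paralogue of Rpl22, rose from 435 to 802 (0.88 ± 0.16, adjusted p 6.07e-06). Rps14, a small subunit protein, rose from 5105 to 9173 (0.85 ± 0.18, adjusted p 1.31e-04). Rpl41, which encodes the smallest ribosomal protein, rose from 6548 to 9794 (0.58 ± 0.18, adjusted p 0.0131). The other rises, of Rpl37a, Rps2, Rpl38, Rpl27, Rps19, Rpl10, Rps15, Rpl22, Rps7 and Rpl7l1, were between 0.36 and 0.57. Rps21, Rps27l, Rpl39, Rpl22l1 and Rps14 were still higher with both groups scaled to the same summed signal, which left 5 members higher and 5 lower and a median of -0.03. With the noncoding RNAs and Lars2 left out of the sum, 5.61% of all genes were higher on that scale and 18.1% lower, with a median of -0.28. Rpl34 was lower, at 38.0 and 16.0 normalized counts, with the same doubt as above.

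**Figure D2:**
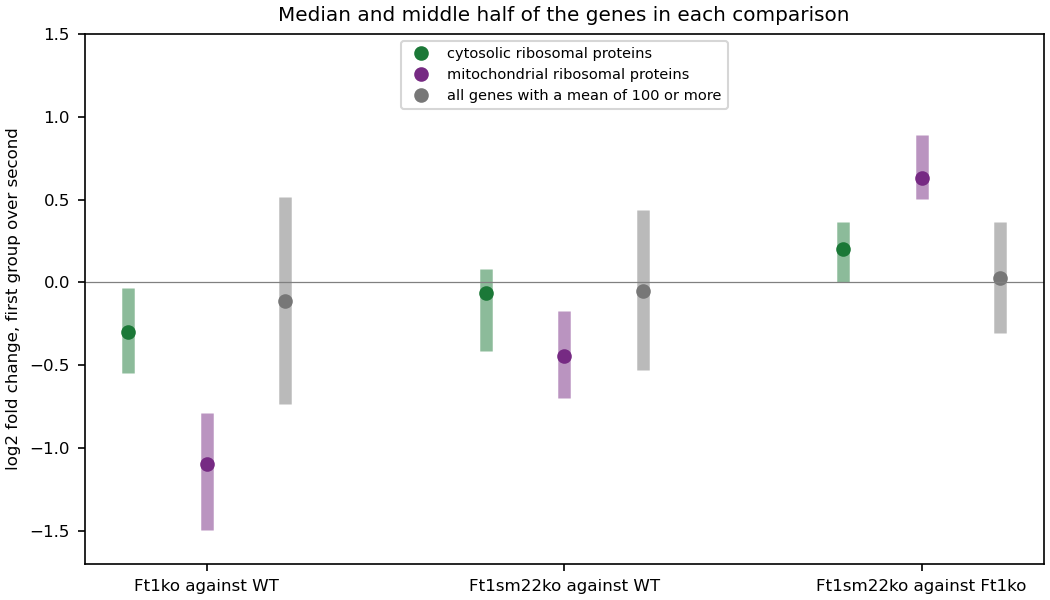
Median (points) and interquartile range (bars) of the log2 fold change, on the authors' scale, over the cytosolic ribosomal protein genes, the mitochondrial ribosomal protein genes and all genes whose mean reached 100 normalized counts in each comparison. The cytosolic family lies at -0.30, -0.07 and 0.20, and the mitochondrial family at -1.10, -0.44 and 0.63; scaling both groups to the same summed signal turns the sign of each cytosolic median.

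The 77 mitochondrial ribosomal protein genes, which build the separate ribosome of the mitochondria, are the family most like this one. In Ft1ko against WT hearts 48 of them were lower, with a median of -1.10, and in Ft1sm22ko 25 were lower, with a median of -0.44. In the direct comparison 38 were higher in Ft1sm22ko, with a median of 0.63. Among all genes tested, 16.1% were lower in Ft1ko, 16.0% were lower in Ft1sm22ko, and 10.8% were higher in the direct comparison. The cytosolic counts in the same tables were 16, 10 and 16, and the difference between the families was not tested.

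Members with a paralogue were described as pairs, with levels per 1000 bases of the longest annotated coding transcript where lengths are compared. Rpl3l is left out of the family by its rule, but the pair with Rpl3 showed the largest contrast. In WT hearts Rpl3 stood at 2310 and Rpl3l at 1459 normalized counts per 1000 bases, and in Ft1ko hearts at 3550 and 26.5. Rpl3l was lower in Ft1ko (-5.78 ± 0.68, adjusted p 2.75e-15) and in Ft1sm22ko (-2.76 ± 0.61, adjusted p 7.15e-05), and was higher in Ft1sm22ko than in Ft1ko hearts (3.04 ± 0.60, adjusted p 2.96e-05). Rpl3 differed by 0.23 ± 0.18 between the mutants and did not pass (adjusted p 0.401).

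Rps4l and Rps4x had values of opposite sign in both mutants. Rps4l, a paralogue of Rps4x, fell from 1186 normalized counts in WT to 647 in Ft1ko (-0.87 ± 0.35, adjusted p 0.0402) and, in the other table, from 1594 to 869 in Ft1sm22ko hearts (-0.88 ± 0.27, adjusted p 0.00526). Rps4x rose in Ft1sm22ko hearts as given above. The difference within a pair was not tested, and reads of such similar sequences could be lost or misassigned in the authors' counting.

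Rpl22 and Rpl22l1 were both higher in Ft1sm22ko than in Ft1ko hearts (0.38 ± 0.13 and 0.88 ± 0.16). Per 1000 bases, Rpl22 stood at 1735 and Rpl22l1 at 788 normalized counts in Ft1ko, and at 2261 and 1453 in Ft1sm22ko hearts. Rpl7l1, a relative of Rpl7 tied to ribosome assembly, rose by 0.36 ± 0.13 in the same comparison (adjusted p 0.0309), while Rpl7 had a value of 0.13 ± 0.15 (adjusted p 0.588). Rpl36a was lower in Ft1ko (-0.65 ± 0.26, adjusted p 0.0402) and in Ft1sm22ko hearts (-0.66 ± 0.19, adjusted p 0.00303). Its relative Rpl36al, outside the name rule, had values of -0.21 ± 0.33 and 0.03 ± 0.24, which did not pass (adjusted p 0.653 and 0.937).

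Rpl39l, Rps27 and Rpl30 could not be judged. Rpl39l, the testis form of Rpl39, was at 1.02 normalized counts in WT and 1.94 in Ft1ko hearts. Rps27, which most cells express strongly, was listed at 11.9 in both groups, and Rpl30 at 0.354 in WT and 1.29 in Ft1sm22ko hearts. None of their values passed the test, and reads of Rps27 and Rpl30 could be lost or misassigned where near-identical copies exist, which was not tested.

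**Figure D3:**
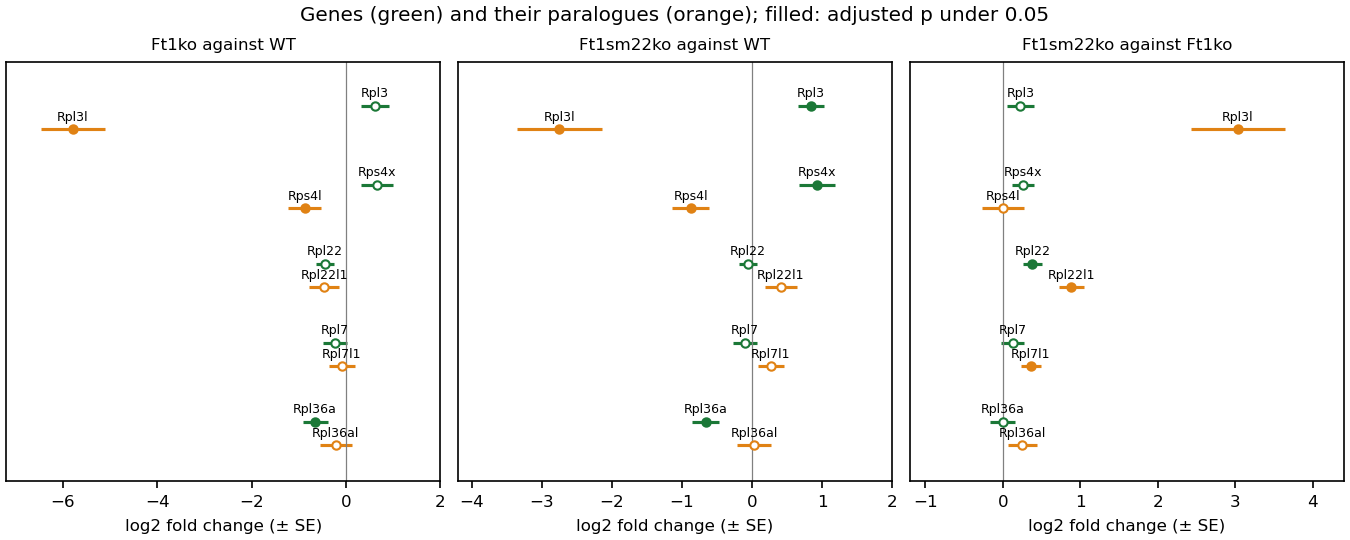
Log2 fold change with its standard error, on the authors' scale, for genes (green) and their paralogues (orange) in the 3 comparisons; the horizontal scale differs between panels and filled points have an adjusted p under 0.05. Rpl3l lies at -5.78, -2.76 and 3.04 while Rpl3 stays between 0.23 and 0.84, and Rps4l and Rps4x lie on opposite sides of 0 against WT.

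Among members with a role of their own, Rpl5 and Rpl11, which carry the ribosomal 5S RNA and bind Mdm2 when ribosome assembly fails, did not pass in Ft1ko (0.47 ± 0.38 and -0.20 ± 0.38, adjusted p 0.349 and 0.716) or in Ft1sm22ko hearts (0.30 ± 0.29 and -0.12 ± 0.29, adjusted p 0.470 and 0.790). These values are on the authors' scale. Rpl5 was among the members higher in Ft1ko hearts when scaled to the summed signal without the noncoding RNAs and Lars2. The stalk proteins Rplp0, Rplp1 and Rplp2, which call elongation factors to the ribosome, did not pass in any comparison on the authors' scale, with values from -0.55 to 0.24. Rps6, the substrate of S6 kinase, had values of 0.03 ± 0.34 and -0.07 ± 0.26 in the mutants against WT (adjusted p 0.958 and 0.871).

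Of the ribosomal proteins made as fusions with ubiquitin or a ubiquitin-like protein, Fau, outside the name rule, was lower in Ft1ko (3765 to 2157 normalized counts, -0.80 ± 0.23, adjusted p 0.00228) and in Ft1sm22ko hearts (5083 to 3076, -0.72 ± 0.19, adjusted p 7.05e-04). Rps27a, a member, had values of -0.38 ± 0.29 in Ft1ko and -0.28 ± 0.19 in Ft1sm22ko hearts, which did not pass (adjusted p 0.316 and 0.262). Gnb2l1, the older name under which the table lists Rack1, a scaffold protein on the small subunit, had values of 0.23 ± 0.29 and 0.38 ± 0.18 (adjusted p 0.570 and 0.0895).

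The members' values were set against transcript length. Lengths came from the longest coding transcript in GENCODE M21 and were found for 76 of the 77 members whose mean reached 100 normalized counts (383 to 5179 bases). The longest annotated transcript may not be the main one in the heart, so some lengths, such as 5179 bases for Rps15a, may be too large. Under 600 bases, 8 of 17 members were lower in Ft1ko hearts (median -0.60). From 600 to under 1000 bases 2 of 26 were lower (median -0.22), and from 1000 bases 5 of 33 (median -0.23). Across members, Pearson's r of the fold change with the log2 length was 0.43 and Spearman's rho 0.44, given as a description, since members share their libraries and are not independent.

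Other coding genes moved with length as well. Under 600 bases 27 of 49 were lower in Ft1ko hearts (55.1%, median -1.22), from 600 to under 1000 bases 170 of 341 (49.9%, median -0.96), and from 1000 bases 1884 of 9095 (20.7%, median -0.07). In Ft1sm22ko against WT hearts, 4 of 17 members under 600 bases were lower (median -0.12), and 20 of 49 other genes (median -0.52). In Ft1sm22ko against Ft1ko hearts, 7 of 17 members under 600 bases were higher (median 0.44), and 31 of 58 other genes (median 0.65). In each comparison and below 1000 bases, the members' median lay closer to 0 than that of the other genes. From 1000 bases it lay further from 0 in Ft1ko against WT (-0.23 against -0.07) and in Ft1sm22ko against Ft1ko (0.18 against 0.01). In Ft1sm22ko against WT it lay closer there too (-0.01 against -0.02). The part of length in the members' values was not tested.

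**Figure D4:**
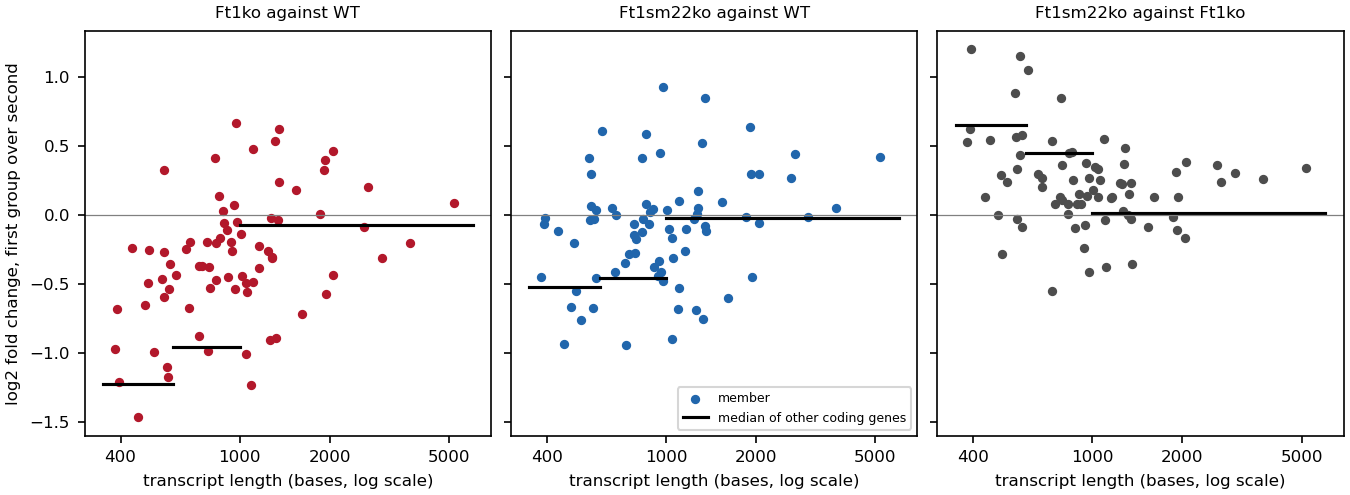
Log2 fold change, on the authors' scale, against transcript length on a log axis for the members whose mean reached 100 normalized counts (points), with the median of the other coding genes in 3 length classes (black lines). Members under 600 bases have medians of -0.60, -0.12 and 0.44 in the 3 comparisons, and other genes of that class -1.22, -0.52 and 0.65.

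The rest of the translation machinery was read from lists, on the authors' scale only. For these lists and the markers below, the background is the share of all genes tested. That share was 19.7% higher and 16.1% lower in Ft1ko, and 16.2% higher and 16.0% lower in Ft1sm22ko hearts. Of 10 elongation factors, 2 were higher and 2 lower in Ft1ko hearts. Eef1a1, the general form of the factor that brings aminoacyl-tRNA, was higher (1.27 ± 0.25, adjusted p 4.19e-06) and Eef1a2, its form in muscle and neurons, was lower (-2.13 ± 0.56, adjusted p 9.29e-04). In Ft1sm22ko hearts 2 were higher, Eef1a1 again among them (1.23 ± 0.18, adjusted p 3.84e-10), and 1 was lower, Eef1d (-0.88 ± 0.25, adjusted p 0.00245).
Of 33 initiation factors, 4 were higher and 4 lower in Ft1ko and 7 higher and 4 lower in Ft1sm22ko hearts. Eif6, which keeps free large subunits apart from small ones, was higher in both (0.92 ± 0.25, adjusted p 0.00108, and 0.82 ± 0.17, adjusted p 1.15e-05), and Eif2b4, of the exchange factor for initiation, was lower in both (-1.28 ± 0.26, adjusted p 1.39e-05, and -0.88 ± 0.20, adjusted p 9.09e-05).

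Of 15 genes of RNA polymerase I and its factors, which make the ribosomal RNA precursor, 3 were lower in Ft1ko hearts and 6 in Ft1sm22ko hearts. Polr1a, its largest subunit, had values of -1.50 ± 0.30 and -1.18 ± 0.27 (adjusted p 8.54e-06 and 1.16e-04). Of 42 ribosome assembly factors, 2 were higher and 1 lower in Ft1ko, and 3 higher and 7 lower in Ft1sm22ko hearts. Npm1, a nucleolar chaperone, was higher in Ft1ko (1.14 ± 0.34, adjusted p 0.00370), and Ppan, a large subunit assembly factor, was lower in Ft1sm22ko hearts (-1.95 ± 0.49, adjusted p 5.25e-04).

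Of 6 other mRNAs with a TOP start, Nap1l1 was higher in both mutants (1.59 ± 0.24 and 0.69 ± 0.20, adjusted p 2.25e-09 and 0.00315) and Naca was lower in both (-1.22 ± 0.37 and -1.09 ± 0.30, adjusted p 0.00464 and 0.00199). In Ft1ko hearts 2 of the 6 were higher and 1 lower, and in Ft1sm22ko hearts 1 and 2. Of 7 host genes of small nucleolar RNAs, 0 passed in Ft1ko, where 2 had an unadjusted p under 0.05 in the authors' DESeq2 model, and 1 was lower in Ft1sm22ko hearts.
Of 16 regulators of ribosomal protein synthesis, 1 was higher and 4 lower in Ft1ko, and 2 higher and 5 lower in Ft1sm22ko hearts. Eif4ebp2, a repressor of cap-dependent initiation, was higher in both (1.94 ± 0.31, adjusted p 6.96e-09, and 1.44 ± 0.28, adjusted p 6.04e-06). Larp1, which binds TOP starts, was lower in Ft1ko (-0.80 ± 0.29, adjusted p 0.0218), and Mycn was higher in Ft1sm22ko hearts (2.15 ± 0.40, adjusted p 1.34e-06).

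Markers of the cells in the tissue moved in the same comparisons. All 8 cardiomyocyte markers were lower in Ft1ko (median -2.49) and 5 of 8 in Ft1sm22ko hearts (median -1.40). Proliferation markers were higher, 10 of 10 in Ft1ko (median 2.47) and 8 of 10 in Ft1sm22ko (median 1.93), as were fibroblast markers, 5 of 7 and 7 of 7. In Ft1ko hearts 8 of 8 lung epithelium markers were higher, which a heart should hardly express, with a median of 8.19, and 5 of 7 fat cell markers and 4 of 4 erythroid markers tested. In Ft1sm22ko hearts 3 of 7 fat cell markers and 3 of 4 erythroid markers were higher, 1 of 1 lung marker tested, and 1 of 9 thymocyte markers. No thymocyte marker had a p in the Ft1ko against WT table, but their summed group means were 98.4 normalized counts in WT and 6040 in Ft1ko hearts, beside 133 in WT and 179 in Ft1sm22ko hearts in the other table. Only 1 of 8 lung markers had a p in Ft1sm22ko against WT, and their median standard error in Ft1ko against WT was 2.02. By default DESeq2 gives no p to a gene with counts in which a library holds an extreme count. The rises of markers without a p may therefore rest on single hearts, which was not tested. For the markers with a p, it cannot be told without values per heart whether a single heart or a whole group carries the rise. The part of these markers in the members' values was not tested.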

How the data were processed

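Hearts of 3 WT, 3 Ft1ko and 4 Ft1sm22ko mice were grouped by the genotype in the labels. The authors aligned paired reads with STAR to a reference they name hg38, though the gene symbols are those of the mouse, counted reads per gene with HTSeq and fitted DESeq2 to each pair of groups. StringTie is also named, and no versions are given in the sources used here. The deposited mean signal is the mean of counts divided by size factors over both groups. The deposited fold change and standard error are on the log2 scale. The deposited score is the Wald statistic of the authors' model, from which the deposited p-value (2-sided) follows, beside an adjusted one.

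These columns are the authors' own comparison, and they were used because the tables hold nothing else; the test is therefore that of the authors' DESeq2 model, and no values per heart were analysed here. Signs were turned so that values are mutant over WT, or Ft1sm22ko over Ft1ko, and were checked on Aktip. The p-values were adjusted by Benjamini-Hochberg over all genes of a table with a p, at 0.05. Group means follow from mean signal, fold change and group sizes, and carry no error. Library depth is unknown, and each table has its own scaling, so levels compare only within a table. The p-values test a group difference against the spread between these hearts as the authors' model estimates it. Nothing says how the hearts were grouped in litters, days or preparation, so effects of these cannot be told apart from that of genotype.

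Named are the 6 largest rises and falls called in each comparison, paralogues with their partners, ribosomal protein genes outside the rule, Aktip and 2 to 4 genes of each list with the smallest p. Rps6, Rpl5, Rpl11 and the stalk proteins were added for their roles after values were seen, and other called members are named with their range. Values of 2 genes are not reported here. The members and lists were chosen with earlier results of these data known. Alternatives were Bonferroni, limits on the mean or fold, the deposited adjusted p, centring on the median gene, and scaling to the summed signal, which was added after the data were seen. Steps were tested on simulated data and ran in python 3.11.15. Versions were pandas 2.3.3 for tables, scipy 1.17.1 for p-values, numpy 2.4.6 and, for plots, matplotlib 3.10.9.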

Additional observations from a re-analysis of the deposited data

Results flagged for a closer look

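The change against WT differed between the mutants, by the direct comparison of Ft1sm22ko with Ft1ko hearts, for 17 members. The log2 differences (Ft1sm22ko over Ft1ko) were 1.20 for Rps21, 1.15 for Rps27l, 1.05 for Rpl39, 0.88 for Rpl22l1 and 0.85 for Rps14, the members that were also higher with both groups scaled to the same summed signal. They were 0.58 for Rpl41, 0.57 for Rpl37a, 0.55 for Rps2, 0.54 for Rpl38 and 0.54 for Rpl27. They were 0.48 for Rps19, 0.45 for Rpl10, 0.44 for Rps15, 0.38 for Rpl22, 0.38 for Rps7 and 0.36 for Rpl7l1, and -1.25 for Rpl34, which has few counts. Groups of hearts could not be searched for single hearts that stand apart, since the tables give no values per heart.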

How the results depend on the processing

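Planned settings other than those of the report gave 60 recomputed values. Of these, 42 kept their direction and stayed within 1.5 times the count or within the median standard error of the members. Under the unplanned scaling to the summed signal, given below, 12 further values moved outside these limits and 6 changed direction. The rest of the 60 were as follows. With Bonferroni in place of Benjamini-Hochberg, 2 members were lower in Ft1ko and 2 in Ft1sm22ko against WT and 0 higher in Ft1sm22ko, and 4 were higher and 0 lower in Ft1sm22ko against Ft1ko. With a log2 fold of at least 1, 6 were lower in Ft1ko, 1 lower and 0 higher in Ft1sm22ko, and 3 higher in Ft1sm22ko against Ft1ko. Centred on genes with a mean of at least 100, 1 member was higher in Ft1ko. Rpl34 was no longer lower than in Ft1ko (0 members) with a mean of at least 100 or centred on all genes. With the noncoding RNAs and Lars2 kept in the total, the members' share was 2.09% and 2.08% in WT (table with Ft1ko and with Ft1sm22ko), 3.61% in Ft1ko in both of its tables, and 3.4% in Ft1sm22ko in both of its tables.

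Scaling to the summed signal, added after the data were seen, turned every median: without the noncoding RNAs and Lars2 to 0.24 in Ft1ko, 0.25 in Ft1sm22ko and -0.031 for Ft1sm22ko against Ft1ko, and with them to 0.80, 0.82 and -0.029. The counts became 7 higher and 2 lower, 14 and 3, and 5 and 5 without them, and 49 and 0, 57 and 0, and 5 and 5 with them. With them, 56.8%, 53.7% and 5.67% of all genes were higher and 3.28%, 2.75% and 17.9% lower. By construction this scaling moves all genes of a comparison by the same amount, which without those RNAs was the log2 ratio of the summed signals (-0.54, -0.32 and 0.23), subtracted from each log2 fold change.

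No paired analysis was possible because the tables hold no values per heart, and leaving out each heart in turn could not be run for the same reason. Depth is unknown, so members under 100 normalized counts are limited most.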

Other observations

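The tables hold 6 rows for ribosomal protein retrocopies and pseudogenes, outside the name rule and chosen after their values were seen. Of these, Rpl31-ps12 and Rps15a-ps4 passed in no comparison (adjusted p from 0.103 to 0.921). Rpl37rt was lower in Ft1ko (174 to 71.9 normalized counts, log2 fold change -1.27 ± 0.30 SE, adjusted p 2.02e-04) and higher in Ft1sm22ko than in WT hearts (234 to 455, 0.96 ± 0.25, adjusted p 0.00110). Rpl14-ps1 did the same (-0.75 ± 0.31, adjusted p 0.0436, and 1.14 ± 0.23, adjusted p 1.17e-05), and between the mutants Rpl37rt and Rpl14-ps1 differed by 2.24 ± 0.23 and 1.88 ± 0.19 (adjusted p 1.80e-18 and 1.18e-18). Rps15a-ps6 was lower in Ft1ko than in WT hearts (100 to 27.6 normalized counts, -1.86 ± 0.66, adjusted p 0.0181). It did not pass in Ft1sm22ko against WT (0.81 ± 0.57, adjusted p 0.284), and it differed by 2.68 ± 0.37 between the mutants (adjusted p 6.65e-10). Rps19-ps3 was lower in both mutants than in WT (-2.22 ± 0.50 and -1.79 ± 0.42, adjusted p 8.19e-05 and 2.02e-04). Their parent genes Rpl37, Rpl14 and Rps15a did not pass in any comparison, and Rps19 passed only between the mutants. Reads of such rows can come from the parent mRNA, which was not tested.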
